A study of Mus musculus with 6 samples.

Results

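The Fc gamma receptors of the mouse and their closest relatives were followed in the right hippocampus after bilateral carotid artery stenosis (BCAS), a surgical model of chronic cerebral hypoperfusion. The 7 genes were selected by symbol out of 54752 genes in the count tables: the activating receptors Fcgr1, Fcgr3 and Fcgr4, the inhibitory receptor Fcgr2b, the shared signalling chain Fcer1g, the receptor-like gene Fcrls and the neonatal Fc receptor Fcgrt. All 7 passed the filter on low counts, which left 18617 tested genes. RNA-seq libraries came from 6 male wild-type C57BL/6 mice (C57BL/6 J in the methods) aged 14 weeks, 3 per group, at 3 weeks after surgery. BCAS mice carried a microcoil around both common carotid arteries, with the narrower coil on the right, and sham mice underwent the operation without coils. Each library was 1 mouse and held 29652456 to 35607098 counts, and tissue was the entire right hippocampus, so that every cell type in it contributed RNA.

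Fc gamma receptors bind the constant part of IgG and are carried in the brain mainly by microglia and by macrophages at its borders. The activating receptors signal through the ITAM of the Fc receptor common gamma chain, encoded by Fcer1g, which Src-family kinases phosphorylate to recruit Syk. Fcgr2b carries its own inhibitory motif, an ITIM that recruits the lipid phosphatase SHIP1, and it is thereby set against the activating receptors on the same cell.

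All 7 genes had higher counts after BCAS, relative to the scaled library totals. Of these, 6 rose past both thresholds of the study, a log2 fold change beyond 1 with an adjusted P value below 0.05, whereas Fcgrt passed the adjusted P value alone. None was lower. Among all 18617 tested genes, 8.47% rose past both thresholds, 9.46% passed them in either direction and 18.0% were higher by the adjusted P value alone. For each of the 7 genes the lowest BCAS mouse lay above the highest sham mouse, a separation that 25.3% of tested genes shared. Ranked by log2 fold change among all tested genes, Fcgr4 stood at place 30, Fcgr2b at 144, Fcgr1 at 163, Fcer1g at 203, Fcrls at 223, Fcgr3 at 293 and Fcgrt at 1991. In bulk tissue, more receptor mRNA per cell and more cells that carry it cannot be told apart.

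**Figure D1:**
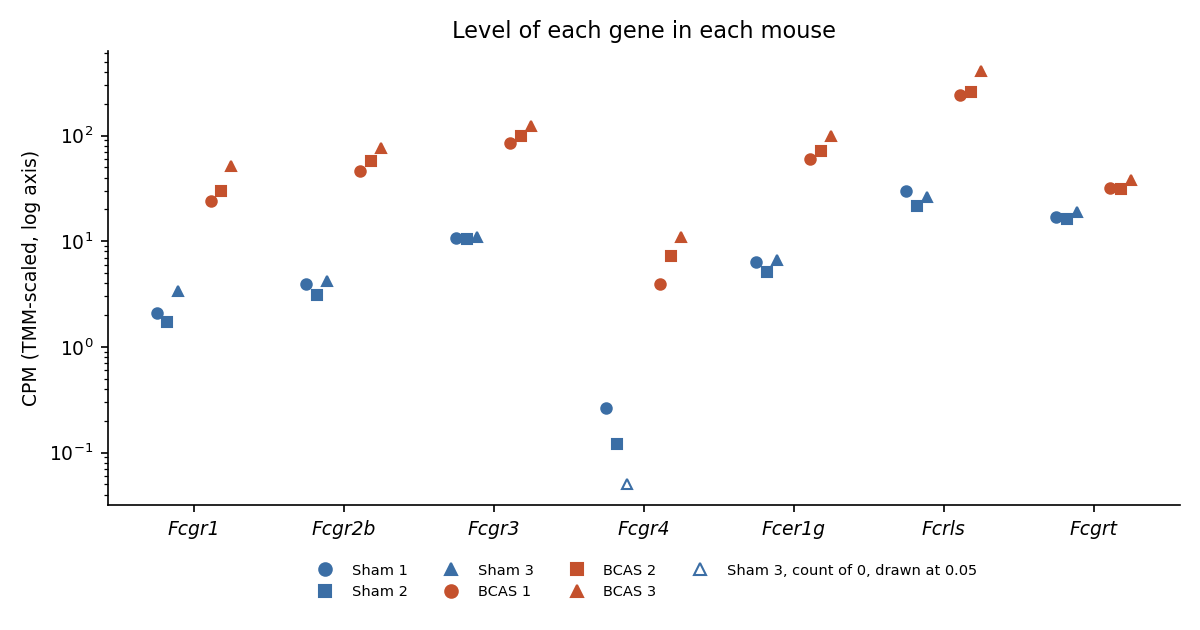
CPM (read counts relative to the TMM-scaled library total, log axis) of the 7 genes in each of the 3 sham and 3 BCAS mice; each point is 1 mouse, and the open triangle stands for a count of 0. BCAS mouse 3 was the highest of the 6 mice for every gene, and for Fcgrt the groups were nearest, at 18.8 CPM in the highest sham mouse and 31.3 CPM in the lowest BCAS mouse.

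Promoter sequence is shown for the activating receptors Fcgr1 and Fcgr4, whose windows held the interferon-related motifs searched for, and for Fcer1g, whose window held none of the motifs. Each run gives the 250 bases before the RefSeq start on GRCm38.p6, 5′ to 3′ on the strand of the gene, with matches in capitals. The Fcgr1 window is chr3:96293970-96294219 (minus strand), the Fcgr4 window chr1:171018676-171018925 (plus strand) and the Fcer1g window chr1:171234350-171234599 (minus strand).
Fcgr1: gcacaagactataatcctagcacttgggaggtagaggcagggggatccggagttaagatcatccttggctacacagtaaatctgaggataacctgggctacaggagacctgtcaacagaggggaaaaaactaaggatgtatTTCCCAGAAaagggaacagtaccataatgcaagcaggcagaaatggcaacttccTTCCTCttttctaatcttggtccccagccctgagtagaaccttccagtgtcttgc
Fcgr4: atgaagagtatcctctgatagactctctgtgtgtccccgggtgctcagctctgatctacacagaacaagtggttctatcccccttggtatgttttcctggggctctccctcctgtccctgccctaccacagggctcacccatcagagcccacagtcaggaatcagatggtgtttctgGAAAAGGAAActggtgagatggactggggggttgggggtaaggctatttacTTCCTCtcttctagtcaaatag
Fcer1g: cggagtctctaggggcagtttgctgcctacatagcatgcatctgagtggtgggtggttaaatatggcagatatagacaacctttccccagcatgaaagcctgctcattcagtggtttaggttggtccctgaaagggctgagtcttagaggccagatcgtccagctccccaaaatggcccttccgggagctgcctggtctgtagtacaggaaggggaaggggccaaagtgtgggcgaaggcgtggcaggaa

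Motifs were searched on both strands of these windows: the gamma-activated sequence GAS, written TTCNNNGAA, the interferon-stimulated response element ISRE, searched as GAAA and GAAA set apart by 2 bases, and the core GAGGAA of sites for PU.1, the myeloid factor encoded by Spi1. The Fcgr1 window held a GAS match, TTCCCAGAA, at 109 to 101 bases before the start, and a PU.1 core at 55 to 50 bases. In the Fcgr4 window an ISRE match, GAAAAGGAAA, lay at 73 to 64 bases before the start and a PU.1 core at 22 to 17 bases. A PU.1 core was also found for Fcrls, at 144 to 139 bases, and for Fcgr3, at 15 to 10 bases before one RefSeq start and 6 to 1 before another, and no match for Fcgr2b, Fcer1g or Fcgrt. Of 32851 promoter windows of this length, 7.02% held the GAS pattern, 2.98% the ISRE pattern and 23.3% the PU.1 core. A match describes letters in the window and does not show that a factor binds there. Since the count tables place 187 of the 250 bases for Fcgr2b and 136 for Fcrls in exons of these genes, and the Fcgr3 windows also lie inside the gene as counted, the windows of these 3 genes need not be the promoters in use.

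Fcgr1 (ENSMUSG00000015947.10, mm10 chr3:96282909-96293969, minus strand) encodes the high-affinity IgG receptor. It had 71, 57 and 116 counts in sham mice 1 to 3, or 2.10, 1.71 and 3.38 CPM, the count relative to the TMM-scaled library total. In BCAS mice 1 to 3 it had 783, 903 and 1607 counts, or 24.1, 29.9 and 51.5 CPM. BCAS mouse 3 had the most in its group and sham mouse 3 the most in the other, and the lowest BCAS mouse was 7.13 times the highest sham mouse. Means were 2.39 ± 0.877 CPM in sham mice and 35.2 ± 14.4 CPM in BCAS mice (SD, n = 3 each). The log2 fold change was 3.87 (SE 0.34, edgeR adjusted P = 8.76e-05). Its spread between mice was wide on both sides, with a coefficient of variation of 36.6% in sham mice and 41.1% in BCAS mice.

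Fcgr3 (ENSMUSG00000059498.13, chr1:171051174-171064935, minus strand) encodes the low-affinity activating receptor and had the highest level per kilobase of exon of the 4 Fc gamma receptors in every mouse. Sham mice 1 to 3 had 363, 352 and 376 counts, or 10.7, 10.5 and 11.0 CPM. BCAS mice 1 to 3 had 2794, 2997 and 3844 counts, or 86.0, 99.4 and 123 CPM. Sham mice differed little, and all BCAS mice were at least 7.85 times as high as the highest sham mouse. Its log2 fold change was 3.26 (SE 0.13, edgeR adjusted P = 4.87e-06), the lowest value among the 4 receptors.

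Fcgr4 (ENSMUSG00000059089.4, chr1:171018920-171029761, plus strand), an activating receptor for IgG2 subclasses, was near the limit of detection in sham mice. It had 9, 4 and 0 counts in sham mice 1 to 3, where 3 counts, taken as the limit that a count of 0 allows, equal 0.0875 to 0.0898 CPM. BCAS mice 1 to 3 had 128, 219 and 341 counts, or 3.94, 7.26 and 10.9 CPM. Every BCAS mouse was thus far above the limit, and the lowest was 14.8 times the highest sham mouse at 0.266 CPM. The fitted log2 fold change of 5.81 (SE 0.66, edgeR adjusted P = 3.18e-04) rests on few sham counts and ranged from 5.22 (without sham mouse 3) to 6.87 (without sham mouse 1).

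Fcgr2b (ENSMUSG00000026656.15, chr1:170958617-170976547, minus strand), the inhibitory receptor, rose with the activating ones. Sham mice 1 to 3 had 133, 103 and 143 counts, or 3.93, 3.08 and 4.17 CPM, and BCAS mice 1 to 3 had 1512, 1740 and 2357 counts, or 46.5, 57.7 and 75.6 CPM. The lowest BCAS mouse was 11.2 times the highest sham mouse. Means were 3.73 ± 0.570 CPM in sham mice and 59.9 ± 14.6 CPM in BCAS mice (SD, n = 3 each). This gave a log2 fold change of 4.01 (SE 0.20, edgeR adjusted P = 1.16e-05).

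Transcripts of Fcgr2b and Fcgr3 are close relatives in sequence, and the longest exact stretch they share in the GENCODE vM21 transcripts was 129 bases, against 15 bases or fewer for any other pair of the 7 genes. No stretch of 150 bases, the length of 1 read before trimming, was shared by any of the 7 genes with another gene. Reads that aligned to several places were not counted, so reads trimmed to within the shared stretch could be lost from both genes. By the coordinates counted on, 155 exonic bases of Fcgr2b, 2.68% of its exon length, overlapped Gm38204 on the opposite strand, which had 0 counts in all 6 libraries.

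**Figure D2:**
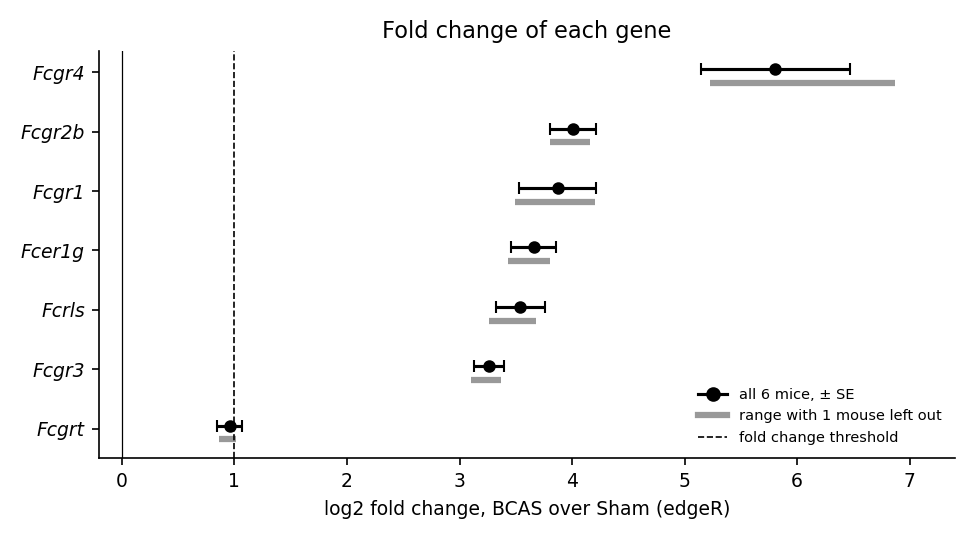
Log2 fold change of BCAS over sham for each gene from edgeR (points, ± SE, 3 mice against 3), with the range obtained when each mouse was left out in turn (grey bars) and the threshold of 1 (dashed line). Fcgr1, Fcgr2b, Fcgr3, Fcgr4, Fcer1g and Fcrls stay above 3 throughout, and Fcgrt straddles the threshold, from 0.86 to 1.02.

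The activating and the inhibitory receptors were then compared within each library, as the log2 ratio of counts per kilobase of exon to those of Fcgr2b. For Fcgr3 the ratio was 3.19, 3.51 and 3.13 in sham mice 1 to 3 and 2.62, 2.52 and 2.44 in BCAS mice 1 to 3. All 3 BCAS mice lay below all 3 sham mice, so that Fcgr3 was less dominant over Fcgr2b after BCAS. The difference was -0.75 on the log2 scale (pooled SD 0.158), with P = 0.1 in an exact two-sided permutation test, the smallest P that 3 mice against 3 allow, and 0.15 after adjustment over 3 ratios.

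For Fcgr1 the ratio to Fcgr2b was 0.26, 0.31 and 0.86 in sham mice and 0.21, 0.21 and 0.61 in BCAS mice. The groups overlapped, and the difference of -0.13 (pooled SD 0.286) was smaller than the spread between mice (exact permutation P = 0.5, adjusted 0.5). Without sham mouse 3 it was 0.06. These 3 mice per group do not show that the ratio was the same.

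For Fcgr4, 1 count was added to both genes because sham mouse 3 had 0 counts. The log2 ratio to Fcgr2b was then -1.54, -2.17 and -4.97 in sham mice and -1.35, -0.78 and -0.58 in BCAS mice. BCAS mouse 1 lay just above sham mouse 1, and the groups did not overlap. The difference of 1.99 (pooled SD 1.32, exact permutation P = 0.1, adjusted 0.15) depended on sham mouse 3, without which it was 0.95.

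Expressed as shares of the 4 receptor genes per kilobase, Fcgr3 made up 78.9% ± 3.42 in sham mice and 67.2% ± 3.89 in BCAS mice (SD, n = 3 each). Fcgr2b made up 8.61%, 7.24% and 8.63% in sham mice and 11.5%, 11.8% and 11.6% in BCAS mice, with no overlap. Fcgr4 went from 1.33% ± 1.34 to 6.35% ± 1.68, also with no overlap, and Fcgr1 was 11.6% ± 3.55 and 14.9% ± 2.42, with overlapping ranges. The 3 activating receptors summed were 10.6, 12.8 and 10.6 times Fcgr2b in sham mice and 7.71, 7.49 and 7.63 times in BCAS mice. Per kilobase, activating receptor mRNA therefore outweighed inhibitory receptor mRNA in all 6 mice, by less in the 3 BCAS mice. The length used was all exon bases counted for a gene, 5790 for Fcgr2b, 2589 for Fcgr1, 1736 for Fcgr3 and 1256 for Fcgr4. Shares and folds between these genes depend on those lengths, and which transcripts were in use was not tested. In counts not divided by length, Fcgr3 alone still stood above Fcgr2b in all 6 mice. These shares are descriptions, and the permutation tests above apply to the separate ratios.

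**Figure D3:**
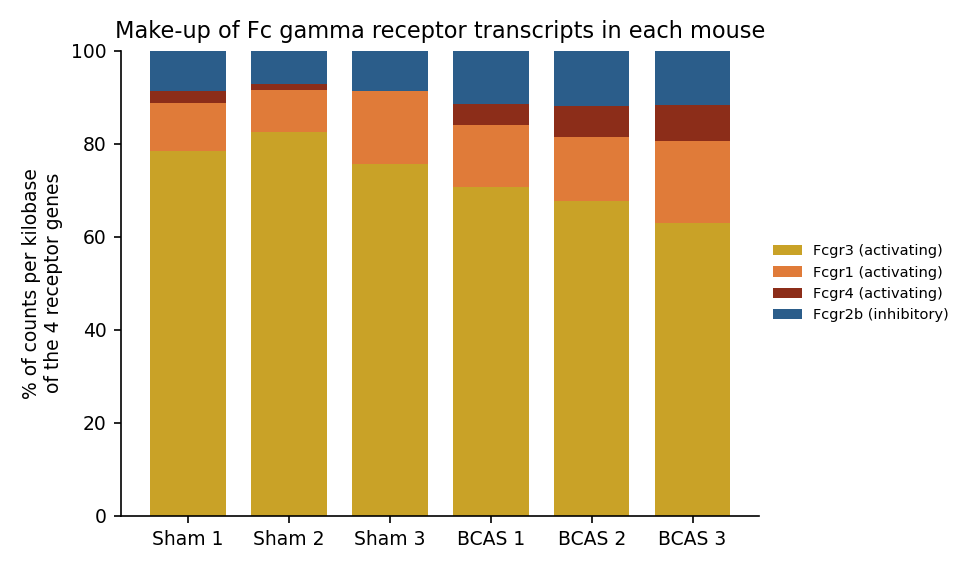
Share of each of the 4 Fc gamma receptor genes in their summed counts per kilobase of exon (%), 1 bar per mouse. Fcgr3 fills 75.7% to 82.5% of the sham bars and 63.0% to 70.7% of the BCAS bars, and the inhibitory Fcgr2b is at 8.63% or less in sham mice and at 11.5% or more in BCAS mice.

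Fcer1g (ENSMUSG00000058715.11, chr1:171229572-171234365, minus strand), the signalling chain of the activating receptors, had 214, 170 and 230 counts in sham mice 1 to 3, or 6.32, 5.09 and 6.71 CPM. In BCAS mice 1 to 3 it had 1936, 2134 and 3075 counts, or 59.6, 70.7 and 98.6 CPM. Its lowest BCAS mouse was 8.89 times the highest sham mouse. The group means of 6.04 ± 0.844 and 76.3 ± 20.1 CPM (SD, n = 3 each) differed by a log2 fold change of 3.66 (SE 0.20, edgeR adjusted P = 1.43e-05). Per kilobase, Fcer1g matched the sum of the 3 activating receptors closely, at 1.00, 0.853 and 1.01 times that sum in sham mice and 1.10, 1.09 and 1.13 times in BCAS mice. Against Tyrobp, which encodes the sister ITAM adaptor DAP12, it went the other way, from 0.586 ± 0.0519 to 0.463 ± 0.0206 (SD, n = 3 each), without overlap.

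Fcrls (ENSMUSG00000015852.13, chr3:87250758-87263738, minus strand) encodes a soluble Fc receptor-like protein and is known as a gene enriched in mouse microglia. Its mean level per kilobase of exon was the highest of the 7 genes in both groups. It had 1014, 720 and 905 counts in sham mice 1 to 3, or 29.9, 21.5 and 26.4 CPM. BCAS mice 1 to 3 had 7841, 7827 and 12636 counts, or 241, 259 and 405 CPM. BCAS mouse 3 stood above the other BCAS mice, and the lowest BCAS mouse was 8.06 times the highest sham mouse. The log2 fold change was 3.54 (SE 0.22, edgeR adjusted P = 1.93e-05).

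Fcgrt (ENSMUSG00000003420.8, chr7:45092990-45103851, minus strand) encodes the neonatal Fc receptor, which returns IgG and albumin from endosomes to the cell surface and pairs with beta-2-microglobulin. It had 572, 546 and 644 counts in sham mice 1 to 3, or 16.9, 16.3 and 18.8 CPM, and 1032, 945 and 1185 counts in BCAS mice 1 to 3, or 31.8, 31.3 and 38.0 CPM. The groups were apart by a narrow margin, the lowest BCAS mouse being 1.67 times the highest sham mouse. The log2 fold change of 0.96 (SE 0.11, edgeR adjusted P = 3.86e-04) fell short of the threshold of 1, and it passed with library totals in place of TMM (1.04), without sham mouse 3 (1.02) and without BCAS mouse 2 (1.00).

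B2m, the partner of Fcgrt, rose by a log2 fold change of 3.19 (SE 0.20, edgeR adjusted P = 2.03e-05), and B2m stood at 11.8 ± 0.539 times Fcgrt per kilobase in sham mice and 54.6 ± 10.1 times in BCAS mice (SD, n = 3 each). Alb, which encodes the cargo protein albumin, did not pass (log2 fold change 0.22, edgeR adjusted P = 0.537). FcRn is known from endothelium and choroid plexus as well as myeloid cells. Of 6 endothelial markers none passed both thresholds and 4 were higher by the adjusted P value alone, with a summed level of 199 to 216 CPM in sham mice and 269 to 302 CPM in BCAS mice. Over all tested genes, 18.0% were higher by the adjusted P value alone. The 5 choroid plexus markers summed to 70.5 to 4105 CPM in sham mice and 47.7 to 5962 CPM in BCAS mice, and none passed the test. The part of endothelial and of choroid plexus RNA in the Fcgrt result was not tested.

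Levels between genes were compared per length, as TMM-scaled CPM divided by the kilobases of exon (CPM per kb). In sham mice the order ran from Fcrls at 11.1 ± 1.80 CPM per kb through Fcgrt at 8.25 ± 0.608, Fcer1g at 6.91 ± 0.966 and Fcgr3 at 6.18 ± 0.123 to Fcgr1 at 0.925 ± 0.339, Fcgr2b at 0.643 ± 0.0984 and Fcgr4 at 0.102 ± 0.106 (SD, n = 3 each). The ranges of Fcer1g and Fcgr3 overlapped, as did those of Fcgr1 and Fcgr2b, and the other neighbours were apart. In BCAS mice the order was Fcrls at 129 ± 38.5, Fcer1g at 87.3 ± 23.0, Fcgr3 at 59.3 ± 10.9, Fcgrt at 16.0 ± 1.77, Fcgr1 at 13.6 ± 5.58, Fcgr2b at 10.4 ± 2.53 and Fcgr4 at 5.87 ± 2.78 CPM per kb (SD, n = 3 each). There only Fcgr3 and Fcgrt were apart among neighbours in the order. The order depends on the exon lengths as counted, 5790 bases for Fcgr2b and 2589 for Fcgr1. By CPM not divided by length, Fcgr2b stood above Fcgr1, at means of 3.73 and 2.39 in sham mice and 59.9 and 35.2 in BCAS mice. Per kilobase, Fcgrt thus moved from the second place in sham mice to the fourth in BCAS mice, behind Fcer1g and Fcgr3, while the other 6 genes kept their order among themselves.

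Markers of microglia, and those shared by microglia and macrophages, moved in the same direction as the 7 genes. For comparison with the counts below, 8.47% of all 18617 tested genes rose and 0.999% fell past both thresholds. The shares by the adjusted P value alone were 18.0% higher and 13.2% lower. All 10 microglia markers and all 12 markers shared by microglia and macrophages rose past both thresholds, and their summed levels went from 295 to 309 CPM in sham mice up to 1412 to 2269 CPM in BCAS mice and from 300 to 324 CPM up to 2818 to 4826 CPM, respectively. BCAS mouse 3 had the highest sum in both lists, as it had the highest level of each of the 7 genes. Markers of hippocampal neurons were present in every mouse, summed at 6035 to 6340 CPM in sham mice and 3023 to 4259 CPM in BCAS mice, with 1 of 6, Neurod6, lower past both thresholds and 4 of 6 lower by the adjusted P value alone. Border-associated macrophage markers rose in 6 of 8 genes (10.9 to 15.2 CPM summed in sham mice, 33.4 to 52.6 CPM in BCAS mice). Lyve1 (log2 fold change 0.14, edgeR adjusted P = 0.825) and Pf4 (0.70, edgeR adjusted P = 0.170) did not pass. Monocyte markers rose in 3 of 5 tested genes, Ly6c2, Ccr2 and Plac8, and neither of the 2 tested neutrophil markers passed (0.808 to 3.50 CPM and 0.985 to 3.65 CPM). Ccr2 was at 0.501 ± 0.0722 CPM in sham mice and 4.36 ± 1.30 CPM in BCAS mice (SD, n = 3 each), while the monocyte sum, 21.5 to 24.7 CPM and 33.5 to 47.6 CPM, was mostly Vcan, which passed the adjusted P value alone. Dendritic cell markers rose in 2 of 6 genes, Itgax and Xcr1, at 15.7 to 19.9 CPM and 54.1 to 60.2 CPM summed, a difference that was almost all Itgax, at 0.532 ± 0.0569 CPM in sham mice and 39.6 ± 4.06 CPM in BCAS mice (SD, n = 3 each). Flt3, Clec9a, Cd209a and Zbtb46 did not pass. NK cell markers, of cells that also carry Fcgr3, rose in 2 of 3 tested genes out of 7 listed, at 0.525 to 1.74 CPM and 2.98 to 5.02 CPM summed. The 2 genes, Nkg7 and Klrk1, had at most 4 counts in any sham mouse. They passed the filter on low counts through the BCAS libraries, so this count is tilted toward genes that rose. B and plasma cell markers, of cells in which Fcgr2b is the main Fc receptor, rose in 3 of 5 tested genes, Cd22, Cd79b and Sdc1. They summed to 2.77 to 3.59 CPM in sham mice and 14.2 to 21.1 CPM in BCAS mice. Most of this difference was Cd22, at 0.226 ± 0.0660 CPM in sham mice and 10.1 ± 2.13 CPM in BCAS mice (SD, n = 3 each). Pax5 (log2 fold change -0.54) and Cd79a (0.85) did not pass, and Ms4a1 was at or below 0.369 CPM in every mouse and was not tested. Of 6 mast cell markers only Kit was tested, and it was lower by the adjusted P value alone (log2 fold change -0.60, edgeR adjusted P = 0.00776). The sum over these markers, almost all Kit, was 114 to 119 CPM in sham mice and 60.6 to 86.0 CPM in BCAS mice. Cpa3, Tpsb2, Mcpt4, Cma1 and Ms4a2 had at most 9 counts in any library, so the sum describes Kit and not mast cells. The part of each cell type in the receptor results was not tested.

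Each gene was set against these markers within each mouse, as its log2 CPM (prior count 2) minus the mean log2 CPM of the marker list. Relative to the 10 microglia markers, BCAS minus sham was 3.20 for Fcgr4, 1.69 for Fcgr2b, 1.54 for Fcgr1, 1.34 for Fcer1g, 1.23 for Fcrls and 0.95 for Fcgr3. For these 6 genes every BCAS mouse lay above every sham mouse, while Fcgrt lay below, at -1.33. With a prior count of 0.5 the value for Fcgr4 was 4.06, and with single mice left out it ran from 2.53 (without sham mouse 3) to 3.72 (without sham mouse 1). The receptors, Fcer1g and Fcrls thus differed between the groups by more than these microglia markers did on average.

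Relative to the 12 markers shared by microglia and macrophages the picture was different. Fcer1g (0.08), Fcrls (-0.03) and Fcgr1 (0.29) had overlapping groups. Fcgr2b was higher by 0.43 and Fcgr4 by 1.94 with no overlap, Fcgr3 was lower (-0.30) and so was Fcgrt (-2.59), again with no overlap. The value for Fcgr4 was 1.22 without sham mouse 3, 2.49 without sham mouse 1 and 2.80 with a prior count of 0.5. Relative to these markers the difference between the groups was thus positive for the inhibitory Fcgr2b and negative for the activating Fcgr3, both by small amounts. No test was made of these differences, and the marker lists were chosen with results on these samples known.

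**Figure D4:**
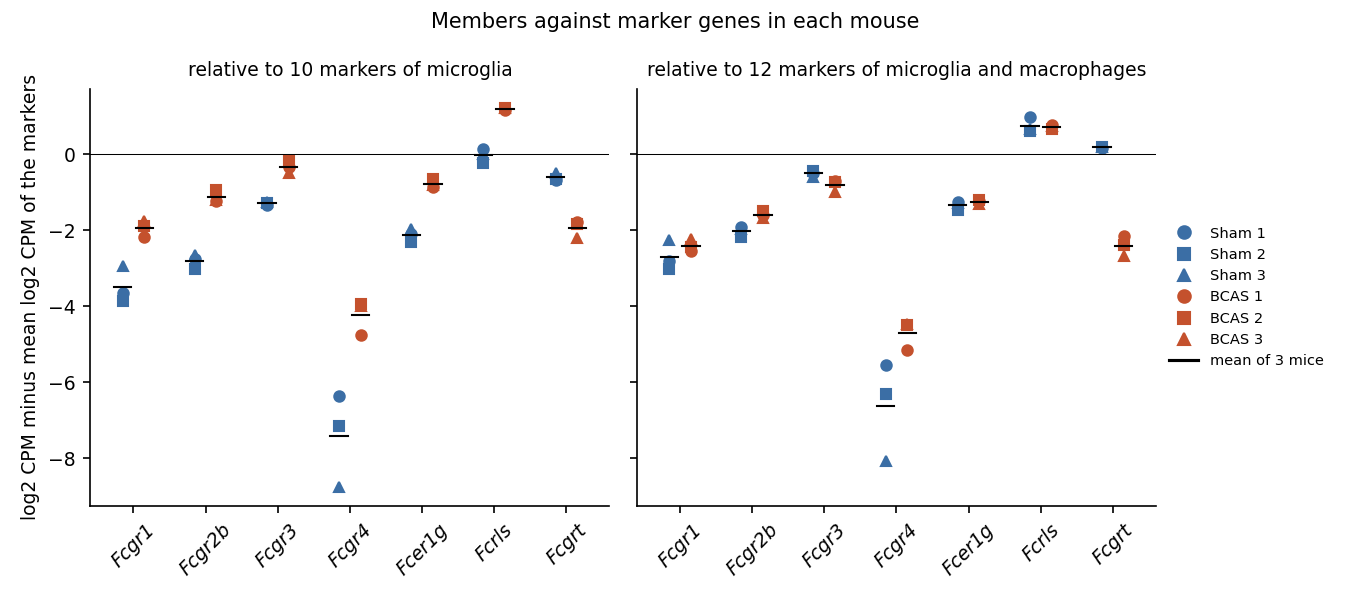
Log2 CPM of each gene minus the mean log2 CPM of 10 microglia markers (left) or of 12 markers shared by microglia and macrophages (right), 1 point per mouse, black lines marking means of 3 mice. On the left 6 genes are higher in BCAS mice, from 0.95 for Fcgr3 to 3.20 for Fcgr4, and on the right Fcer1g, Fcrls and Fcgr1 overlap between the groups.

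Genes with the profile nearest to each member were found among 15631 tested genes with a mean of at least 1 CPM, by the Euclidean distance of log2 CPM from the own sham mean over the 6 libraries. For Fcgr2b they were Tyrobp (distance 0.23), Ptprc (0.23) and C1qa (0.26), for Fcgr3 Igsf6 (0.16), Arhgap9 (0.26) and Rasal3 (0.28), and for Fcgr1 Epsti1 (0.42), Ptprc (0.47) and Bcl3 (0.47). Fcer1g lay nearest to Cxcl16 (0.27), C1qc (0.28) and C1qb (0.28), and Fcrls to Laptm5 (0.24) and Ccl9 (0.25). Fcgr4 had no close match, with C3 (1.24), Ccl12 (1.25) and Ifi204 (1.41) as its nearest genes. Fcgrt had the closest matches, Mob3a (0.11), Lamp1 (0.11) and Cracr2a (0.11), of which Lamp1 encodes a lysosomal membrane protein and had a log2 fold change of 0.97 (edgeR adjusted P = 3.52e-04). The 6 libraries share the same split into groups, so a small distance mostly reflects a similar difference between them.

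Most other Fc receptors were at low levels in this tissue. Of 12 listed, 4 were tested and 2 rose: Fcrl1, a receptor-like gene known from B cells, at 0.266, 0.239 and 0.292 CPM in sham mice and 1.45, 2.29 and 4.62 CPM in BCAS mice (log2 fold change 3.37, SE 0.49, edgeR adjusted P = 0.00124), and Trim21, the cytosolic antibody receptor, at 2.94 ± 0.733 CPM in sham mice and 8.91 ± 2.63 CPM in BCAS mice (SD, n = 3 each, edgeR adjusted P = 0.00218). Fcer2a (-0.22, edgeR adjusted P = 0.747) and Fcrlb (0.48, edgeR adjusted P = 0.452) did not pass. Fcer1a and Fcrl5 had 0 counts in every library, which allows up to 0.0875 to 0.0995 CPM, and Ms4a2, Fcamr, Fcmr, Pigr, Fcrla and Fcrl6 were too low to test. Among all tested genes, 8.47% rose. Fcrl1, with 9, 8 and 10 counts in sham mice, passed the filter on low counts through its BCAS counts. With so few genes tested, the count that rose is therefore tilted toward genes that rose. The median log2 fold change of the 4 tested genes was 1.04, against 0.02 over all tested genes, and it carries the same tilt.

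The ligands of these receptors are immunoglobulins and pentraxins. Of 16 genes 8 were tested and 7 rose: Igha (log2 fold change 4.30), Ighg2b (3.88), Igkc (3.34), Ptx3 (3.14), Jchain (2.28), Ighm (1.93) and Ighg2c (1.55). Over all tested genes 8.47% rose. Genes low in both groups were not tested, while Ighg2b, with 0, 1 and 4 counts in sham mice, passed the filter through its BCAS counts. The count among tested genes is therefore tilted toward genes that rose. The IgG heavy chains, whose products the Fc gamma receptors bind, were at low levels. Ighg2b had 0, 0.0299 and 0.117 CPM in sham mice and 0.492, 1.56 and 0.289 CPM in BCAS mice (edgeR adjusted P = 0.0156). Ighg2c had 0.236, 0.898 and 0.292 CPM in sham mice and 1.05, 1.66 and 1.47 CPM in BCAS mice (edgeR adjusted P = 0.0491), a call that was lost when any mouse but sham mouse 2 was left out, and with RLE size factors. Ighg2b lost its call without sham mouse 1 or sham mouse 2. The log2 fold change of Ighg2b was 2.89 without BCAS mouse 2 and 5.38 without sham mouse 3, and that of Ighg2c was 2.38 without sham mouse 2. Ighg3, Ighe, Apcs and Crp had 0 counts in every library, Ighg1, Iglc1, Iglc2 and Iglc3 were too low to test, and Ighd did not pass (0.86, edgeR adjusted P = 0.123). The part of B and plasma cells, whose markers are given above, in the immunoglobulin results was not tested.

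Receptors that pair with Fcer1g, and its sister adaptors, were described next. Of 12 such genes, 6 were tested and 5 rose, with a median log2 fold change of 3.09. Over all tested genes 8.47% rose. Tyrobp was at 7.84 ± 0.423 CPM in sham mice and 125 ± 27.4 CPM in BCAS mice (SD, n = 3 each, log2 fold change 3.99, SE 0.16, edgeR adjusted P = 4.87e-06). Cd247, the T cell receptor zeta chain that also serves Fc receptors of NK cells (3.42), the myeloid receptor Cd300ld (3.29), Clec4n, which encodes dectin-2 (2.90, and 3.69 without sham mouse 3), and Hcst, which encodes the adaptor DAP10 (1.91), rose as well. Cd247, Cd300ld and Clec4n had at most 10 counts in any sham mouse and passed the filter on low counts through the BCAS libraries. The 6 T cell markers, all of which rose, summed to 0.384 to 0.612 CPM in sham mice and 6.83 to 7.50 CPM in BCAS mice. None had more than 10 counts in any sham mouse, and they passed the filter on low counts through the BCAS libraries. That filter therefore favoured a rise among them. The part of T cells in the Cd247 result was not tested. The call of Hcst was lost without sham mouse 1, sham mouse 2 or BCAS mouse 3. Oscar did not pass (-0.31, edgeR adjusted P = 0.390), and Fcer1a had 0 counts.

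Downstream of the receptors, 48 genes of Fc gamma receptor signalling were tested, of which 23 rose and 0 fell past both thresholds. Over all tested genes these shares were 8.47% and 0.999%. By the adjusted P value alone, 32 were higher and 3 lower, against 18.0% and 13.2% of all tested genes. Their median log2 fold change was 0.95, against 0.02 over all tested genes.

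Among 7 proximal kinases 5 rose. Syk, which docks to the phosphorylated ITAM, went from 3.91 ± 0.244 CPM in sham mice to 21.4 ± 6.33 CPM in BCAS mice (SD, n = 3 each, log2 fold change 2.45, SE 0.21, edgeR adjusted P = 7.21e-05). The Src-family kinase Fgr went from 0.119 ± 0.0606 CPM to 7.87 ± 1.67 CPM (SD, n = 3 each, log2 fold change 6.01, SE 0.35, edgeR adjusted P = 1.66e-05). The fold of Fgr rests on 4, 6 and 2 counts in sham mice. It ranged from 5.69 (without sham mouse 3) to 6.42 (without sham mouse 2). Btk (3.46) and Lyn (2.63) were among those that rose. Fyn (-0.17, edgeR adjusted P = 0.101) and Src (-0.09, edgeR adjusted P = 0.455), Src-family kinases also found in neurons, did not pass.

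Of 18 adaptors and enzymes 9 rose: Lat2 (log2 fold change 3.89), Vav1 (3.11), Lcp2 (2.75), Pik3cg (2.73), Pik3r5 (2.33), Plcg2 (2.29), Lat (2.04), Vav2 (1.21) and Card9, the last at 2.56 ± 0.168 CPM in sham mice and 10.3 ± 2.35 CPM in BCAS mice (SD, n = 3 each). Plcg2, the phospholipase C of myeloid Fc receptor signalling, was at 7.08, 5.27 and 4.11 CPM in sham mice and at 23.4, 22.2 and 35.1 CPM in BCAS mice. Its relative Plcg1 did not pass (0.08, edgeR adjusted P = 0.561). The call of Lat was lost without sham mouse 1 or BCAS mouse 1. Another 5 genes were higher by the adjusted P value alone, which brought the count to 14, and Grb2 (-0.16) and Pik3cb (-0.13) did not pass (edgeR adjusted P = 0.0929 and 0.283).

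On the inhibitory side 5 of 8 genes rose. Ptpn6, which encodes the phosphatase SHP1, went from 5.05, 4.01 and 3.41 CPM in sham mice to 39.7, 40.5 and 68.2 CPM in BCAS mice (log2 fold change 3.57, SE 0.25, edgeR adjusted P = 2.75e-05). Inpp5d, which encodes SHIP1, the effector of Fcgr2b, went from 11.2, 9.67 and 8.25 CPM to 65.0, 67.6 and 101 CPM (log2 fold change 3.01, SE 0.19, edgeR adjusted P = 2.08e-05). Neither gene showed overlap between the groups. Dok1 (2.19), Dok2 (1.92) and Csk (1.07) rose too, Csk losing its call without BCAS mouse 3, while Inppl1 passed the adjusted P value alone (0.96) and Ptpn11 (0.13) and Dok3 (0.19) did not pass. Genes of both the activating and the inhibitory arm were thus higher in BCAS mice.

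Of 15 engulfment genes, which shape actin around bound particles, 4 rose: Rac2 (log2 fold change 3.48), Was (2.83), Arpc1b (2.46) and Gsn (1.01). Gsn lay at the threshold and fell below it under 6 alternatives, among them DESeq2 (0.99) and the replicate block (0.99). Wasl (-0.61), Arpc2 (-0.43) and Arpc5 (-0.40) were lower by the adjusted P value alone (edgeR adjusted P = 0.00226, 0.00198 and 0.00437). The relatives Rac1 (-0.02, edgeR adjusted P = 0.857) and Cdc42 (0.02, edgeR adjusted P = 0.894) did not pass, and the median of the 15 genes was 0.10.

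**Figure D5:**
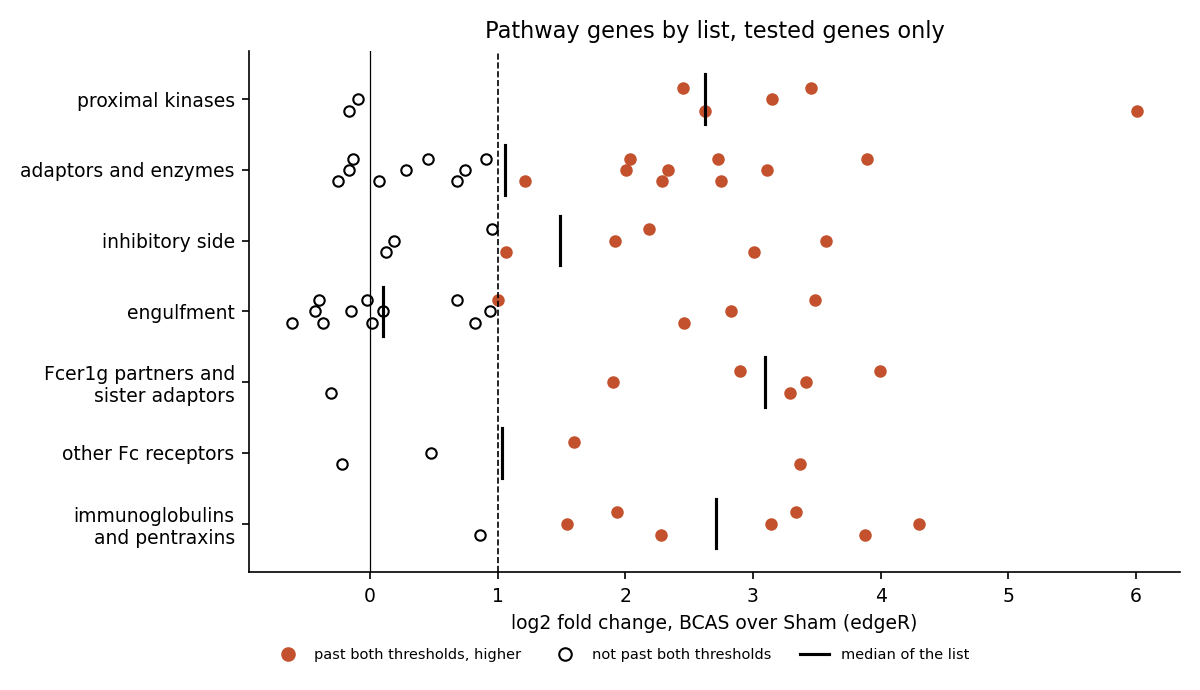
Log2 fold change of BCAS over sham (edgeR) of every tested gene in 7 lists, 1 point per gene, filled where both thresholds were passed; black lines mark list medians and the dashed line the threshold of 1. The medians run from 0.10 for engulfment genes to 3.09 for partners of Fcer1g and sister adaptors.

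Fcgr2b, Fcgr3, Fcgr4 and Fcer1g lie within 0.276 Mb of chromosome 1. Of 13 other genes in this interval 5 were tested with edgeR and 0 were called in either direction. Their log2 fold changes ran from -0.33 to 0.78, the smallest adjusted P was 0.0648, and 1 had an unadjusted P under 0.05. Within 0.5 Mb of the cluster 35 genes other than the members were tested and 6 rose: Arhgap30, F11r, Cd244a, Ly9, Slamf7 and Cd48, of which Arhgap30 alone lay within 0.2 Mb. The 6 genes all lie on the Fcer1g side of the cluster and were named after their values were seen. Around Fcrls 4 of 10 tested genes rose (Kirrel, Cd5l, Fcrl1 and Pear1), around Fcgr1 1 of 40 (Txnip) and around Fcgrt 5 of 56 (Aldh16a1, Tead2, Cd37, Ftl1 and Plekha4). Of all tested genes 8.47% rose. Within 0.5 Mb the counts around Fcgr1 and Fcgrt were below or near that share, while those around Fcrls and the chromosome 1 cluster were above it. Within 0.2 Mb of the chromosome 1 cluster it was 1 of 26 tested genes, below that share.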

How the data were processed

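RNA-seq counts of the right hippocampus of 3 sham and 3 BCAS mice were analysed, grouped by their labels. Per the labels and methods, the authors trimmed the reads with Trim Galore, aligned them to mm10 with HISAT2 and SAMtools 1.9, and counted them per gene with featureCounts 1.6.3. The file headers name featureCounts 2.0.3 and GENCODE vM20, with mates counted separately, strand ignored and reads aligned to several places left out. The deposited values were raw counts, neither normalized nor filtered. Symbols were matched for 54723 of 54752 genes, and no row lacked a gene.

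The quasi-likelihood test of edgeR was run on genes kept by filterByExpr after TMM normalization, with Benjamini-Hochberg adjustment over all 18617 (R 4.3.3, edgeR 4.0.16, limma 3.58.1, DESeq2 1.42.0). TMM factors were 0.964 to 0.984 in sham and 1.01 to 1.05 in BCAS libraries, and the common biological coefficient of variation was 0.161. A count of 0 allows up to 3 counts, a limit that covers counting error only. Genes with few counts in sham mice, Fcgr4 among them, could pass the filter through their BCAS counts alone. For such genes, being tested already favoured a rise. The steps were tested on simulated data. Promoter windows and starts came from RefSeq on GRCm38.p6, the build of mm10, and were matched by symbol for 7 of 7 genes. Transcript sequences came from GENCODE vM21.

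The 7 genes, the gene lists and the markers were chosen with earlier results of these data known. Named are the 7 genes, every called gene of a described list with up to 4 others, genes at 0 counts, and for each of the 7 the 3 genes with the nearest profile, and a few genes under this rule are not reported here. Alternatives were DESeq2, limma-voom, RLE size factors, library totals, no filter beyond 1 count, a mean of at least 10 counts, halved counts, a prior count of 0.5 in place of 2, no fold change threshold, a replicate block, and leaving out each mouse. For the Fcgr4 ratio, 1 count was added, and a floor of 3 counts was an alternative chosen after seeing the data.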

Additional observations from a re-analysis of the deposited data

How the results depend on the processing

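Fcgr1, Fcgr2b, Fcgr3, Fcgr4, Fcer1g and Fcrls kept their direction and stayed past both thresholds in all 14 alternatives, with log2 fold changes from 3.10 (Fcgr3) to 6.87 (Fcgr4). Fcgrt kept its direction in all 14 and passed both thresholds in 3 of them, at 1.04 with library totals, and over the mice left out its log2 fold change ranged from 0.86 to 1.02. By the adjusted P value alone, the list counts moved to 14 adaptors and enzymes higher, 7 engulfment genes higher and 3 lower, and 3 genes lower over all 48. With 1 mouse left out, the pairs of neighbours in the order of levels with overlapping ranges numbered 0 to 2 for sham mice and, for BCAS mice, 1 to 5. Within 0.2 Mb, called neighbours numbered 1 of 26 tested on chromosome 1, 0 of 14 for Fcgr1, 3 of 27 for Fcgrt and 3 of 3 for Fcrls. No called result reversed, while some differences near 0 that were not called changed sign, among them the Fcgr1 to Fcgr2b ratio (0.06 without sham mouse 3). Without BCAS mouse 3, 1210 genes rose and 96 fell in the whole table, against 1576 and 186 with all mice, and the replicate block gave 1437 and 158. Under the block every one of the 7 genes kept its call, Fcgr2b at a log2 fold change of 3.99. Gsn alone of the listed genes other than the cell type markers lost its call. The ratios to Fcgr2b had an exact paired permutation P of 0.25, the smallest that 3 pairs allow. The numbers share no stated source, and residual correlations of same-numbered mice were 0.036, -0.314 and -0.158, so they were not taken as pairs. The BCAS columns inside the tables are numbered 2 to 4 in place of 1 to 3, and by those numbers sham mouse 2 with BCAS mouse 1 gave 0.223 and sham mouse 3 with BCAS mouse 2 gave 0.347. With 0 to 9 counts per sham mouse the fold of Fcgr4 is imprecise, and 3 mice against 3 cannot give a permutation P below 0.1 for any single ratio.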
